A study of Drosophila melanogaster with 4 samples.

Results

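Among the H3K4me3 peaks of Drosophila melanogaster white prepupae, 202 were narrow, strong and separate from their neighbours, of 7245 peaks on the 6 chromosome arms and 7743 in the whole list. These regions were selected on the authors' own peak values. They lie on 2L, 2R, 3L, 3R, 4 or X, score 150 or more, are under 1500 bp wide, and have more than 500 bp free of peaks on both sides. Below, a peak is strong at a score of 150 or more, narrow under 1500 bp and separate with gaps of more than 500 bp. Score, width and gap are therefore described for these regions and support nothing. The position along the arm and the scores and widths of a region's neighbours did not enter its choice, though their distance did.

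Trimethylation of lysine 4 of histone H3 was mapped by chromatin immunoprecipitation and sequencing of prepupae at the moment when the larva stops moving and its cuticle is still white. Per the labels, 2 libraries were precipitated with a polyclonal H3K4me3 antibody raised in rabbit, and 2 further libraries hold input DNA. All 4 came from the strain Y cn bw sp. Its genotype carries the pigment markers y[1], cn[1], bw[1] and sp[1], the sensory receptor alleles Rh6[1], Gr22d[1] and Gr22b[1], and further MstProx[1], LysC[1], GstD5[1], lab[R4.2], oc[R3.2] and CG33964[R4.2]. The deposited values are 1 list for the series, with a position on FlyBase release 5 and a score per peak on a scale the file does not name. It holds no value per library, so the depth is unknown, replicate error and the input background could not be measured, and no difference below was tested. Chromatin of whole prepupae mixes many cell types, and a mark in fewer cells cannot be told apart from a weaker mark in more cells.

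H3K4me3 is deposited by the Set1, Trithorax and Trithorax-related methyltransferase complexes, of which Set1 makes most of the trimethylated form in flies. It marks the nucleosomes at the 5′ ends of genes that are being transcribed, and proteins with PHD fingers bind it, in mammals among them a subunit of the general transcription factor TFIID. A promoter with the mark on only a few nucleosomes gives a narrow peak, while long or neighbouring transcription units can give wide or grouped ones. Which genes the regions below belong to is not given here, since no annotation or genome of release 5 was used.

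Strong H3K4me3 peaks were rarely narrow. Of the 3184 strong peaks on the arms, 495 were narrow (15.5%), and of these 202 were also separate (40.8%; 95% exact binomial interval 36.4 to 45.3). Over all 7245 peaks on the arms, 4004 were narrow (55.3%) and 3113 were separate (43.0%). Score and width, both used by the choice, rose together over these peaks (Spearman's rho 0.88), so a low share of narrow peaks among strong ones partly restates this. Among the strong peaks of 1500 bp or more, 1007 of 2689 were separate (37.4%; 35.6 to 39.3), so the share of separate peaks had overlapping intervals in narrow and wide strong peaks. The 202 regions made up 6.34% of the strong peaks (5.52 to 7.25) and 2.05% of the bases under peaks on the arms, 252 kb in all. Seen from the other side, 202 of the 1838 narrow and separate peaks were strong (11.0%; 9.60 to 12.5), against 43.9% of all peaks on the arms. All intervals here and below are exact (Clopper-Pearson) for shares, based on order statistics for medians and exact Poisson for counts per Mb. The interval of rho, used only where the limits were varied, comes from Fisher's z transformation. All these intervals cover counting error only and treat peaks as independent, which neighbouring peaks are not.

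**Figure D1:**
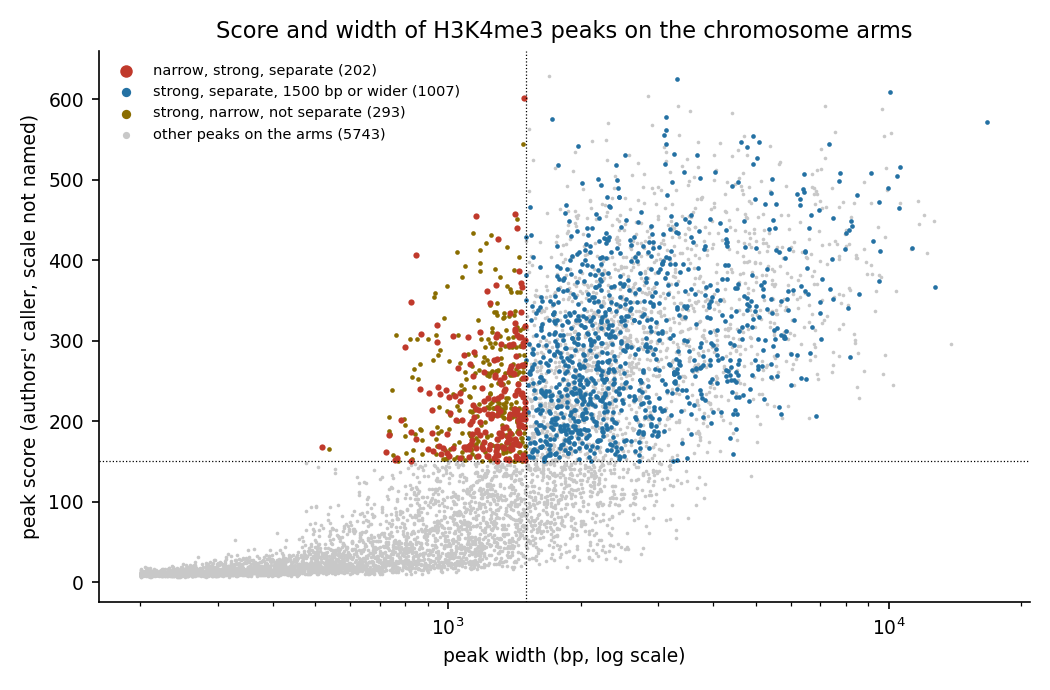
Score (vertical axis, scale not named by the file) against width in bp (horizontal axis, log scale) for each peak on the 6 arms, with dotted lines at a score of 150 and a width of 1500 bp. The 202 narrow, strong, separate peaks fill the upper left corner beside the 293 narrow strong peaks that are not separate, and 63 of the 202 are 1400 bp wide or more.

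The regions scored 151 to 601 with a median of 209 (quartiles 171 and 261). Their widths ran from 519 to 1499 bp with a median of 1293 bp (quartiles 1123.5 and 1420 bp). Many sat near the limits that define them: 61 scored under 180, and 63 were 1400 bp wide or more. Only 29 were under 1000 bp, of which 3 were under 750 bp. At the other end, 24 scored 300 to 400 and 6 scored over 400. These counts follow from where the limits were placed.

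The peaks next to each limit show how little divides them. By score, the regions just inside were on 3L at 18177634 to 18178456 (151, 823 bp) and on 3R at 23383629 to 23384919 (151, 1291 bp). Just outside stood a peak of 1004 bp on 2R at 13584861 to 13585864 (149.8) and one of 1469 bp on X at 13738329 to 13739797 (149). By width, peaks of 1499 bp on 2R at 14706949 to 14708447 (score 224) and on 3R at 25839449 to 25840947 (254) were inside. Peaks of 1501 bp on 2L at 18136592 to 18138092 (428) and of 1506 bp on chromosome 4 at 1350412 to 1351917 (276) were outside. By gap, a distance of 503 bp let in the peaks on 3L at 9423372 to 9424656 (158) and on X at 17994232 to 17995402 (157). Gaps of 498 and 497 bp left out those on 3R at 1833325 to 1834418 (261) and on 2R at 5858654 to 5860152 (191).

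The highest scores belonged to regions on 2L, X and 2R. The first was on 2L at 18441809 to 18443294 and scored 601 over 1486 bp. It outscored 99.9% of the peaks on the arms, and its neighbours lay 119665 bp before it (score 10.6) and 3444 bp after it (331). The second, on X at 15032005 to 15033423, scored 457 over 1419 bp with 51544 and 153616 bp free of peaks on its sides. No other peak had its midpoint within 25 kb of this region.

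The next regions were also on 2L, and both had a neighbour within 4 kb. The one at 20787637 to 20788794 scored 455 over 1158 bp, with its nearer neighbour, 3095 bp away, scoring 7.90. The one at 15749767 to 15751204 scored 439.6 over 1438 bp and lay 975 bp from a peak of 3060 bp that scored 396. On 2R, the region at 3136718 to 3138015 (1298 bp) scored 427 and stood between weaker peaks of 99.1 and 21.1. The region at 19640175 to 19641021 combined a score of 406 with a width of 847 bp, which gave it the most score per width of all peaks on the arms, 47.9 per 100 bp.

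On 3L, the 2 highest scores were next to each other in the list. They lay at 15581927 to 15583372 (386, 1446 bp) and 15602248 to 15603531 (369, 1284 bp), with 18875 bp and no peak between them. The list of the 10 highest scores was completed by 2R at 8393438 to 8394898 (371, 1461 bp) and 2L at 8122666 to 8124138 (367, 1473 bp). Of these 10 regions, 4 were on 2L, 3 on 2R, 2 on 3L and 1 on X. Of all 202 regions these arms held 28, 45, 37 and 45, in the same order. The second score of X, 362, came from 4025169 to 4026393 (1225 bp), which has 183725 bp without a peak on its far side. On 3R the highest scores were 334 at 17680607 to 17681992 (1386 bp) and 322 at 5334699 to 5336118 (1420 bp), a region that has a 6314 bp peak of score 296 at 897 bp.

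**Figure D2:**
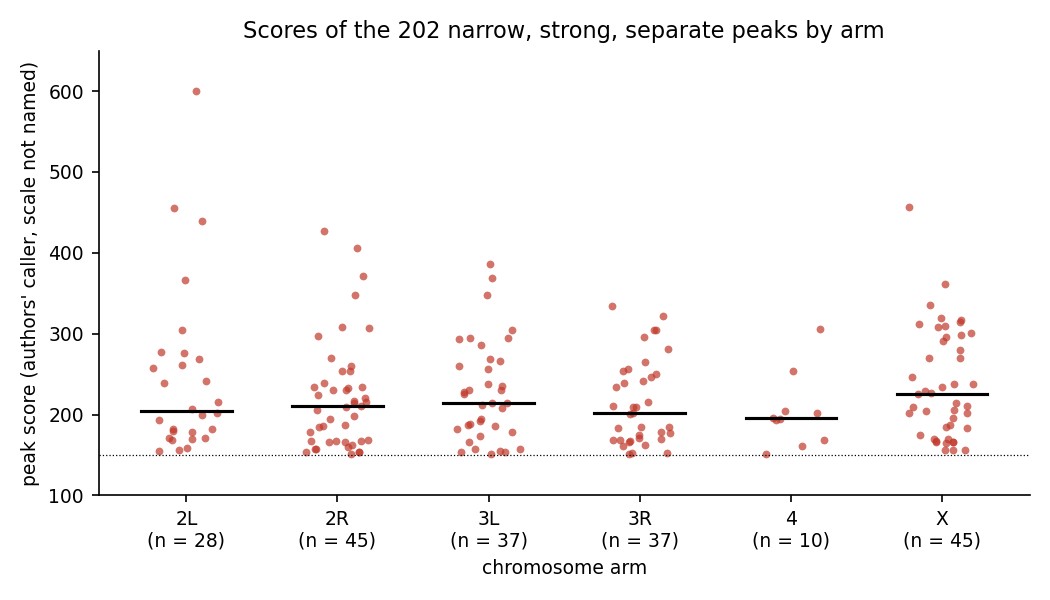
Score of each of the 202 regions (points, spread sideways for legibility) by chromosome arm, with the median of the arm as a black bar and the limit of 150 as a dotted line. The medians run from 196 on chromosome 4 to 225 on X, and the highest point, 601, is on 2L.

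Score divided by width had a median of 17.5 per 100 bp in the 202 regions (quartiles 14.1 and 21.4). What this ratio measures depends on the scale of the score, which is not named. The separate strong peaks of 1500 bp or more had a median of 10.7, and all peaks on the arms one of 6.85. Both terms of this ratio were used to choose the regions, so the difference is given by the choice. After the 2R region above, the next values were 42.2 on 3L at 17794660 to 17795484 (348 over 825 bp), 40.4 and 39.3 for the 2L regions scoring 601 and 455, and 36.5 on X at 13629468 to 13630266 (291 over 799 bp). The X region has 12 other peaks within 25 kb.

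The narrowest of all was on chromosome 4 at 1335785 to 1336303, with 519 bp and a score of 168. It stood between 2 wider strong peaks, of 2879 bp (291) at 8262 bp and of 2925 bp (283) at 1322 bp. The next were 722 bp on 3R at 7694486 to 7695207 (162), 736 bp on 2L at 21237176 to 21237911 (182), 757 bp on chromosome 4 at 691718 to 692474 (152) and 767 bp on 2R at 74829 to 75595 (154). All 5 narrowest regions scored under the median of the set, 209.

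Score and width were only loosely related within the set, with a Spearman's rho of 0.19 over the 202 regions. Across all 7245 peaks on the arms rho was 0.88, and among the 1007 separate strong peaks of 1500 bp or more it was 0.38. The choice of the regions cut both measures, which limits their range. Score and the smaller of the 2 gaps had a rho of 0.029, and width and the smaller gap one of 0.10. These are descriptions over peaks of 1 list that share its libraries.

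Chromosome 4, the small and largely heterochromatic dot chromosome, held 10 of the regions among only 18 strong peaks (55.6%; 30.8 to 78.5). On the 5 large arms it was 192 of 3166 (6.06%; 5.26 to 6.95). Per length this came to 7.76 regions per Mb on chromosome 4 (3.72 to 14.3) and 1.61 per Mb on the large arms (1.39 to 1.86). Strong peaks of chromosome 4 were narrow in 10 of 18 cases, against 485 of 3166 on the large arms (15.3%). They were separate in 15 of 18 cases (83.3%; 58.6 to 96.4), against 37.7% on the large arms (36.0 to 39.4). Strong peaks scored lower there, with a median of 199 against 281, and narrow peaks are commoner at low scores. Between scores of 150 and 200, 6 of 9 strong peaks on chromosome 4 were narrow and separate (66.7%; 29.9 to 92.5), against 80 of 597 on the large arms (13.4%; 10.8 to 16.4). Between 200 and 310 it was 4 of 9 (44.4%; 13.7 to 78.8), against 91 of 1324 (6.87%; 5.57 to 8.37). These values rest on 18 peaks of chromosome 4, and the part of the lower scores in the difference was not tested. Of all 7245 peaks on the arms, 76 were on chromosome 4 (1.05%). So were 33 of the 1636 narrow and separate peaks scoring under 150 (2.02%), against 10 of the 202 regions (4.95%). Narrow and separate peaks were thus not confined to the strong peaks of this chromosome.

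The 10 regions of chromosome 4 ran along its whole length. Its highest scores were 305 at 590480 to 591505 (1026 bp) and 254 at 486262 to 487540 (1279 bp). A score of 204 came from 806842 to 808213 (1372 bp), the most isolated region of the chromosome, with 81001 and 46222 bp free on its sides. The regions at 328767 to 330234 (195, 1468 bp) and 333210 to 334662 (196, 1453 bp) followed each other at 2975 bp with no peak between, after the 97272 bp without a peak that precede the first of them. The remaining regions were those at 86547 to 87903 (193, 1357 bp), 1144798 to 1145794 (161, 997 bp) and 1286439 to 1287220 (202, 782 bp), beside the 519 and 757 bp regions named above. In 7 of the 10, the region scored above both its neighbours (70.0%; 34.8 to 93.3), an interval that includes the 53.5% of all 202 regions.

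Of the 8 strong peaks on chromosome 4 that did not qualify, 5 were between 1506 and 1701 bp wide. The other 3 measured 2879, 2925 and 3240 bp. Strong peaks on this chromosome thus lay close to the width limit, with a median of 1460.5 bp, against 2275.5 bp for the strong peaks of the large arms.

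Among the large arms the share of strong peaks that were narrow and separate ran from 4.72% on 3R (37 of 784; 3.34 to 6.45) to 8.36% on X (45 of 538; 6.17 to 11.0). It was 4.86% on 2L (28 of 576), 5.93% on 3L (37 of 624) and 6.99% on 2R (45 of 644; 5.14 to 9.24). The intervals of neighbours in this order overlapped, and those of 3R and X overlapped as well. Per Mb, 2R (2.13) and X (2.01) held the most regions and 2L the fewest (1.22). X carried 45 of the 202 regions, 22.3% (16.7 to 28.6), an interval that includes its share of all peaks on the arms, 18.8%.

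The smaller gap, a value that the choice used, had medians from 1173 bp on chromosome 4 to 3430 bp on 2R. It was 1182 bp on X (742 to 2328; 45 regions), against an interval of 2781 to 5037 on 2R (45 regions). A peak lay within 1 kb of 21 of the 45 regions on X (46.7%; 31.7 to 62.1), of 16 of the 37 on 3L (43.2%) and of 10 of the 45 on 2R (22.2%; 11.2 to 37.1), and the intervals of X and 2R overlap. In the wider separate strong peaks the medians were 1359 bp on X (1078 to 1807; 173 peaks) and 1802 bp on 2R (1461 to 2944; 222 peaks). The gap entered the choice of the regions through its lower limit, and X and 2R were set side by side after the values of all arms were seen. Width, which the choice cut at 1500 bp, had medians between 1152.5 bp on chromosome 4 and 1322 bp on 2R.

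Along the 5 large arms the regions took a larger share of the strong peaks toward the centromere. With each arm cut into 5 equal parts between its first and last peak, the share was 7.55% in the centromeric part (48 of 636; 5.62 to 9.88), then 7.35% (43 of 585), 6.05% (38 of 628) and 5.21% (35 of 672). In the outermost part it was 4.34% (28 of 645; 2.90 to 6.21). The intervals of the end parts overlap, and the order was not the same on each arm. The centromeric part had a higher share than the outermost one on 2L (8.03% against 2.65%), 2R (9.43% against 1.91%), 3L (6.09% against 5.22%), 3R (6.56% against 4.55%) and X (8.42% against 8.26%). On X, 3L and 2R the highest share was in another part than the centromeric one.

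The share of narrow peaks among strong ones was lowest in the outermost part. It was 15.7% in the centromeric part (13.0 to 18.8), 18.6% and 17.4% in the next 2, 14.4% in the fourth and 10.9% in the outermost (8.56 to 13.5). Separate peaks were 42.0% of the strong peaks in the centromeric part and 37.5% in the outermost one, with 33.8% as the lowest value, in the middle. Scores of 310 or more were held by 218 of 636 strong peaks in the centromeric part and by 302 of 645 in the outermost one, and few of the regions score so high. Within ranges of score the order along the arm was less regular. For scores of 150 to 200 the share was 14.2%, 16.1%, 11.5%, 13.6% and 11.5% from the centromeric to the outermost part. For 200 to 310 it was 7.94%, 6.58%, 8.79%, 5.65% and 5.22%, and for 310 or more it was 2.75%, 3.91%, 0.413%, 0.791% and 0.993%. In the 2 Mb next to the centromeric end of the assembled span, 22 of 195 strong peaks were narrow and separate (11.3%; 7.21 to 16.6), against 170 of 2971 in the rest of the large arms (5.72%; 4.91 to 6.62). By arm these were 6 of 28 strong peaks on 2R, 2 of 12 on 3L, 3 of 21 on X, 7 of 77 on 3R and 4 of 57 on 2L. In the same order, the rest of these arms held 39 of 616, 35 of 612, 42 of 517, 30 of 707 and 24 of 519. The difference at the centromeric end was not tested, not split by score and not repeated under other limits.

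**Figure D3:**
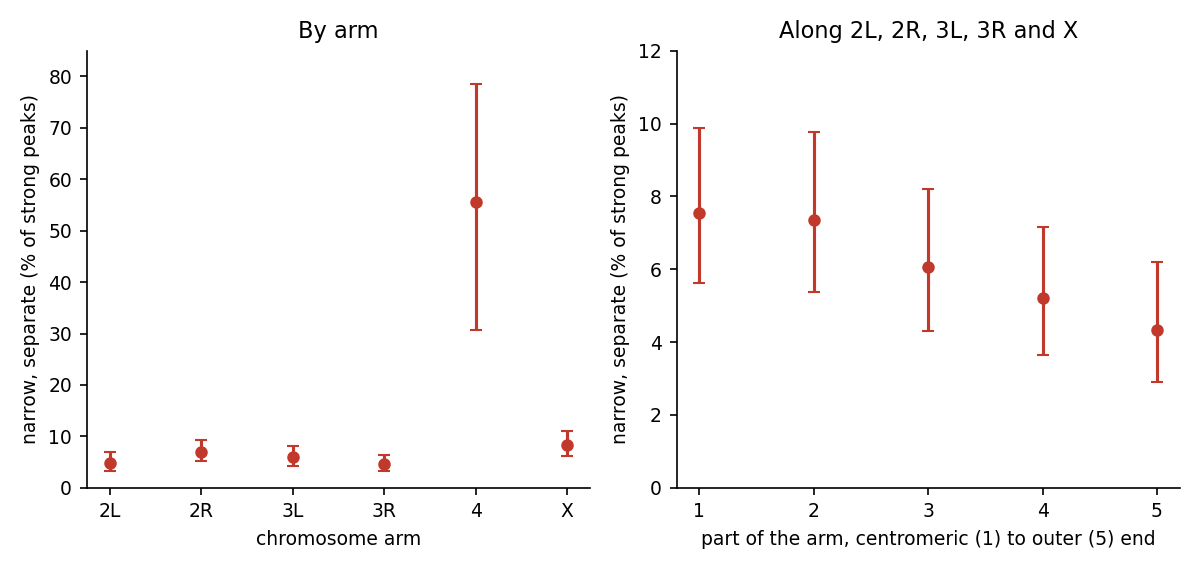
Share of strong peaks that are narrow and separate (percent, points) with 95% exact binomial intervals (bars), by chromosome arm on the left and in 5 equal parts of the large arms on the right. Chromosome 4 stands at 55.6% with a wide interval, and along the large arms the share runs from 7.55% in the centromeric part to 4.34% in the outermost part.

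The neighbours of the regions were of mixed strength. The choice of a region did not use the score or width of its neighbours. It did limit their distance, and some regions were neighbours of each other. The nearer neighbour had a median score of 108 (82.4 to 158) and a median width of 1283.5 bp (1160 to 1572). Scores of the nearer neighbour ran from 7.90 to 604, with quartiles of 33.6 and 261. In 89 of 202 cases the nearer neighbour was itself strong (44.1%; 37.1 to 51.2), and in 37 cases it scored under 20 (18.3%; 13.2 to 24.4). For the separate strong peaks of 1500 bp or more the median score was 128 (109 to 147), with 46.2% strong neighbours (43.1 to 49.3). Over all 7245 peaks on the arms it was 129.8, with 46.5% strong neighbours. These medians and shares lie within the intervals of the 202 regions.

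In narrow strong peaks that were not separate the nearer neighbour scored 176 at the median (152 to 192), and it was strong in 165 of 293 cases (56.3%; 50.4 to 62.1). The intervals of the 202 regions and of these 293 peaks overlapped for both measures. Neither neighbour was strong in 75 of the 202 regions (37.1%; 30.5 to 44.2), in 325 of 1002 wider separate strong peaks with neighbours on both sides (32.4%; 29.5 to 35.4) and in 66 of 293 narrow strong peaks that were not separate (22.5%; 17.9 to 27.7). The intervals of the regions and of the last set do not overlap in this measure, a difference that was not tested. Over all peaks on the arms with neighbours on both sides it was 2218 of 7233 (30.7%; 29.6 to 31.7). That interval overlaps the one of the regions and lies above the one of the last set. A broad peak of 5 kb or more was the nearer neighbour of 7 regions (3.47%; 1.40 to 7.01), against 4.61% over all peaks on the arms.

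**Figure D4:**
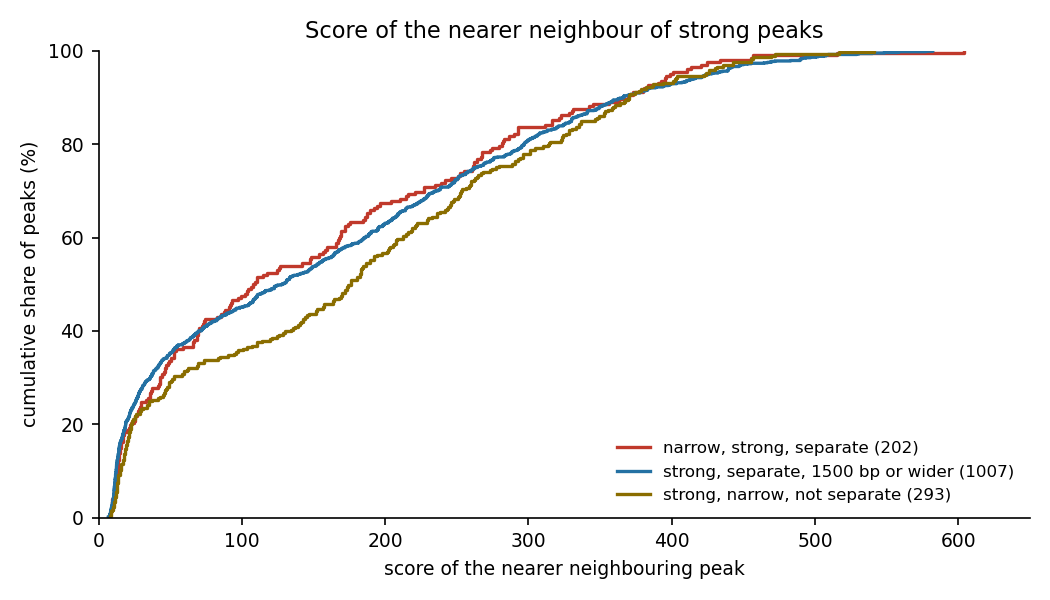
Cumulative share of peaks (percent) by the score of their nearer neighbour, for the 202 regions, the 1007 separate strong peaks of 1500 bp or more and the 293 narrow strong peaks that are not separate. The curves of the regions and of the wider separate peaks run close together, with medians of 108 and 128, while the third set lies to the right in the middle of the range, with a median of 176.

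A region scored above both its neighbours in 108 of 202 cases (53.5%; 46.3 to 60.5), against 652 of 1002 for the wider separate strong peaks (65.1%; 62.0 to 68.0). The wider peaks score higher, and within equal ranges of score the intervals overlapped. Between 150 and 200 the shares were 38.4% for the regions (28.1 to 49.5) and 33.3% for the wider peaks (26.3 to 41.0). Between 200 and 250 they were 45.5% (32.0 to 59.4) and 54.3% (46.8 to 61.5). Between 250 and 300 they were 80.6% (62.5 to 92.5) and 60.4% (53.1 to 67.4), and above 300 they were 83.3% in both.

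Separation from neighbours was mostly short of isolation. The smaller gap of a region had a median of 2514.5 bp (quartiles 762.75 and 7851), and the larger gap one of 18327 bp. A peak lay between 500 bp and 1 kb away in 70 of 202 cases (34.7%; 28.1 to 41.7), and 39 regions had no peak within 10 kb on either side (19.3%; 14.1 to 25.4). The wider separate strong peaks had 32.7% (29.8 to 35.7) and 17.2% (14.9 to 19.7) for the same measures. Over all peaks on the arms, 69.3% had a peak within 1 kb and 9.21% had none within 10 kb. The difference from all peaks is given by the gap limit of the choice, at least in part.

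The 5 most isolated regions were on 3R, 2L, 3L and 2R. The first, on 3R at 13847328 to 13848620 (216, 1293 bp), had 208959 and 140557 bp free on its sides. The next, on 2L at 1884650 to 1886055 (171, 1406 bp), had 132442 and 87986 bp free, and both its neighbours were strong (420 and 393). On 3L the regions at 18177634 to 18178456 (151, 823 bp) and 10454793 to 10456241 (208, 1449 bp) had smaller gaps of 72366 and 52947 bp. The 767 bp region of 2R named above had 53746 bp.

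Outside the 500 bp that the choice keeps free, other peaks covered more bases around the regions than over the arms as a whole. This baseline includes bases far from any peak, and coverage around all peaks was not measured. Between 2 and 5 kb from the edge, other peaks covered 19.2% of the bases beside the 202 regions, 22.6% beside the wider separate strong peaks and 28.5% beside the narrow strong peaks that were not separate. The arms as a whole were covered to 10.2% between their first and last peaks. Between 10 and 25 kb the values were 15.1%, 17.6% and 18.2%, and between 25 and 50 kb they were 12.1%, 14.9% and 14.4%. The regions had the lowest coverage of the 3 sets in each of these distance ranges. Other peaks with their midpoint within 25 kb numbered 4 at the median for the regions (4 to 5) and also for the wider separate strong peaks (4 to 5), against 6 for the narrow strong peaks that were not separate (6 to 7). Over all peaks on the arms the median was also 6 (6 to 6), so the regions, chosen for their gaps, had fewer peaks around them than the ordinary peak.

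**Figure D5:**
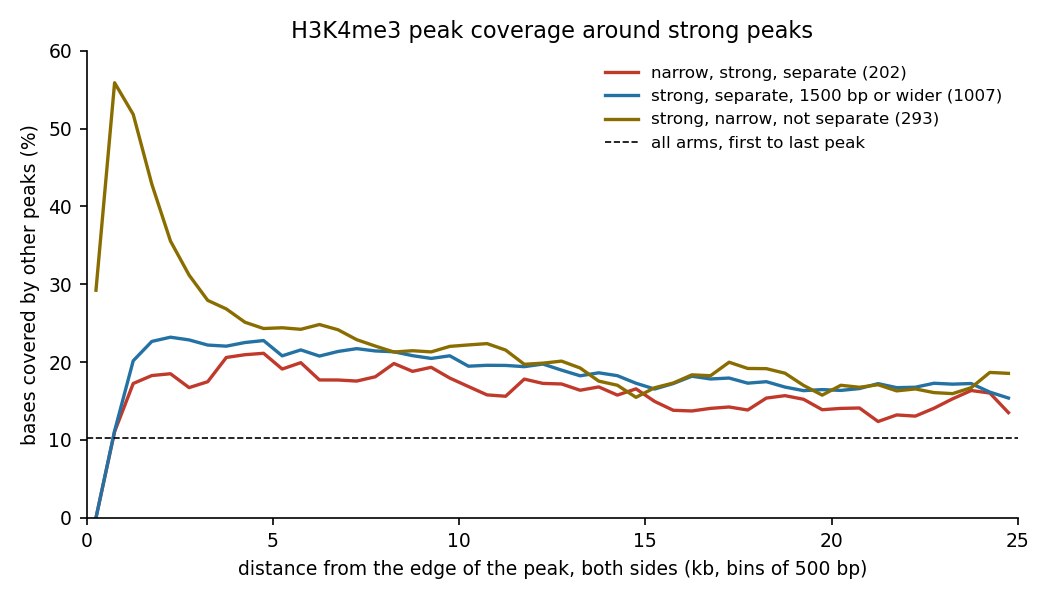
Share of bases covered by other peaks (percent) with distance from the edge of a peak in kb, both sides together in bins of 500 bp, for 3 sets of strong peaks, and the share over all arms (dashed, 10.2%). The first bin is at 0 for both separate sets by their definition, and the curve of the 202 regions lies below that of the wider separate peaks over most of the range.

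The nearest other region of the set was 160477 bp away at the median (117628 to 230141), with extremes of 524 and 1577246 bp. Of the 123 windows of 1 Mb counted from the first base of each arm, 97 held at least 1 region, 35 of them exactly 1 and 38 of them 2. The most, 7, lay in the first 1 Mb of chromosome 4. In 9 places regions followed each other with no other peak between, always as a pair. They were 3 pairs on X, 3 on 3L, 2 on 2R and 1 on chromosome 4.

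The closest pair, on X, consisted of 17994232 to 17995402 (157, 1171 bp) and 17995927 to 17997328 (295, 1402 bp), 524 bp apart. On 2R the regions at 6427896 to 6429168 (154, 1273 bp) and 6429831 to 6430793 (159, 963 bp) were 662 bp apart. The closest on 3L, at 21628246 to 21629285 (231, 1040 bp) and 21634066 to 21635132 (154, 1067 bp), had 4780 bp between them. On 3R the closest, at 5327124 to 5328258 (177, 1135 bp) and 5334699 to 5336118 (322, 1420 bp), were 6440 bp apart with 2 other peaks between. On 2L the closest regions were 87356 bp apart, at 11179074 to 11180365 (277, 1292 bp) and 11267722 to 11268953 (156, 1232 bp).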

How the data were processed

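H3K4me3 was measured in 2 immunoprecipitated and 2 input libraries. The submitters' processing notes name the tools BWA, MACS2 and CASAVA (1.7.0.2, 1.7.0.3) with the build BDGP5, and the deposited score has no named scale per the file headers, which give FlyBase release 5. Whether replicates were pooled, and all settings, are not given in the sources used here. Width was end minus start plus 1, and gaps were taken between neighbours on the same sequence. Spans of arms run from the first to the last peak. The members, the comparison sets and the regions named (10 highest scores, 2 highest per arm, 5 narrowest, 5 largest smaller gaps, 5 highest scores per bp, the closest pair per arm and 2 peaks on each side of each limit, beside all regions of chromosome 4, added later) were chosen with earlier results of these data known. No p-value was computed, because no library has values of its own. The selection of members and the median intervals were tested on simulated data. Start sites, genes and motifs were planned and not run, since the gene table used is on release 6. The software was scipy 1.17.1, pandas 2.3.3 and numpy 2.4.6 under Python 3.11.15, with plots by matplotlib 3.10.9.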

Additional observations from a re-analysis of the deposited data

Results flagged for a closer look

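Outside the 6 chromosome arms, 148 of 498 peaks met the same limits of score, width and gap (29.7%; 95% exact interval 25.7 to 33.9), against 2.79% of the peaks on the arms. They are listed as signal outside the regions described. On Uextra, a concatenation of unplaced fragments, there were 143. Their width was 827 bp at the median and their scores reached 311. Of the others 3 were on U, 1 on 3RHet and 1 on XHet. Fragment ends can limit widths and gaps on U and Uextra, and their part in this count was not tested.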

How the results depend on the processing

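The limits that define the regions were varied one at a time, and peaks scoring under 20 were removed before the gaps were taken. Of 101 alternative values for 14 results, 53 stayed within 1.5 times the count or within the 95% interval of the reported value, and 48 moved further. The shares of chromosome 4 and of the centromeric and outermost parts are shares of the strong peaks there, and were added after the data were seen. Where the score limit was changed, the shares are of the peaks at or above the changed limit.

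A score of 100 or more gave 361 regions (9.55% of the peaks scoring 100 or more, 3.00 per Mb, 97317 bp to the nearest other region, rho 0.33), with shares of 10.5% in the centromeric and 7.45% in the outermost part. A score of 200 or more gave 116 (4.50% of the peaks scoring 200 or more, 0.965 per Mb, 326799 bp), with a share of 2.82% in the outermost part. A width limit lowered by 250 bp gave 85 (2.67%, 0.707 per Mb, 579783 bp, rho 0.052, smaller gap 1559 bp). These were 27.8% of the strong peaks on chromosome 4, 3.30% of those in the centromeric part and 1.24% of those in the outermost part. A width limit raised by 250 bp gave 329 (10.3%, 2.74 per Mb, 97317 bp), with 11.3% in the centromeric and 8.37% in the outermost part. Gaps of more than 250 bp gave 330 (10.4%, 2.74 per Mb, 116044 bp, smaller gap 662 bp), with 11.9% in the centromeric and 7.75% in the outermost part. Gaps of more than 1000 bp gave 132 (4.15%, 1.10 per Mb, 314036 bp, smaller gap 4409 bp), with 5.19% in the centromeric part. These limits set the number of regions by their construction.

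Without the peaks scoring under 20 there were 7.41% (1.96 per Mb), and the nearer neighbour, now never weak, had a median score of 167, a median width of 1636.5 bp and a strong share of 53.4%, with 3.5 peaks within 25 kb. Within 10 kb and 50 kb the median number of other peaks was 2 and 8. In each of these 7 settings the share on chromosome 4 exceeded that in the centromeric part, which in turn exceeded that in the outermost part. Start sites and motifs were not run. No paired analysis was possible because peaks are not given by library, which also prevents leaving out a replicate. With the depth of sequencing unknown, its limits were not measured.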
